A study of Homo sapiens with 120 samples.

Results

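Kinesins are motor proteins that use ATP to walk along microtubules or to take microtubules apart. The kinesin genes described here are those whose symbol is KIF or KIFC followed by a number and at most a letter from A to C, and that have a probe set naming no other gene. Of the 19775 genes with such a probe set on the array, 41 met this rule, and each was read through its brightest probe set. They were sorted by textbook role into 13 mitotic kinesins, 15 transport kinesins and 13 other kinesins.

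Mitotic kinesins build and move the spindle: they push the poles apart, hold chromosomes at the metaphase plate, correct faulty attachments and organise the midzone where the cell divides. Many of their genes are transcribed mainly in G2 and M phase, under promoters that often carry a CHR element (cell cycle genes homology region) downstream of CCAAT boxes. Transport kinesins carry vesicles, mitochondria and ciliary cargo towards the microtubule ends, and most are needed in cells that do not divide as well as in those that do. Both groups need intact microtubules, which colcemid and vincristine disrupt.

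The study treated TK6 cells, a human B-lymphoblastoid line that grows in suspension, and measured total RNA on Affymetrix HG-U133 Plus 2 arrays. Formaldehyde (50, 100 and 200 µM), a reactive aldehyde that cross-links DNA and protein, was set beside chemicals of known action. Those were the clastogens, which break chromosomes, methyl methanesulfonate (MMS, 80, 160 and 320 µM) and ethyl methanesulfonate (EMS, 1, 2 and 4 mM), and the aneugens, which disturb chromosome segregation, colcemid and vincristine. Each chemical was given at 3 doses for 4 h and 24 h with untreated arrays of its own at both times, and 3 arrays labelled as experiments 1, 2 and 3 formed each of the 40 groups. MMS and EMS are alkylating agents that differ in the group they transfer to DNA, methyl in MMS and ethyl in EMS. Colcemid and vincristine bind tubulin and block microtubule assembly. Doses of both aneugens are written inconsistently in the labels and are given here by rank, as lowest, middle and highest. Every group was the same cell line, so a result describes TK6 cultures only.

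Promoter sequences are shown for 5 mitotic kinesins and, for contrast, for KIF3A and KIF3B, transport kinesins described in several comparisons below. Each run is the 120 bases before the RefSeq gene start on GRCh38.p14, read 5′ to 3′ on the gene's strand. Capitals mark the CHR hexamers TTTGAA or TTTAAA (reverse TTCAAA for TTTGAA, while TTTAAA reads the same on both strands) and CCAAT (reverse ATTGG). KIF20A moves the chromosomal passenger complex to the central spindle, KIF23 is the motor subunit of centralspindlin, KIF18A damps chromosome movements at the metaphase plate, KIF11 (Eg5) separates the spindle poles and KIF4A works on chromosome arms and in the spindle midzone. KIF3A and KIF3B form the heterodimer of kinesin-2, the motor of intraflagellar transport.
KIF20A, chr5:138178992-138179111, plus strand: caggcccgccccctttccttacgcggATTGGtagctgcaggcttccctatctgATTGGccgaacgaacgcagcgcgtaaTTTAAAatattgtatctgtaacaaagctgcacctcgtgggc
KIF23, chr15:69414229-69414348, plus strand: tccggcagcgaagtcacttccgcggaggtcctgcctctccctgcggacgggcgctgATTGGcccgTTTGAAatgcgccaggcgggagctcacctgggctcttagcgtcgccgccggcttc
KIF18A, chr11:28108157-28108276, minus strand: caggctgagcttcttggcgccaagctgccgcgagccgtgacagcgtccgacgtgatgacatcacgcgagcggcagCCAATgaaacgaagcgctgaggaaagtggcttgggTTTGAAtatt
KIF11, chr10:92593010-92593129, plus strand: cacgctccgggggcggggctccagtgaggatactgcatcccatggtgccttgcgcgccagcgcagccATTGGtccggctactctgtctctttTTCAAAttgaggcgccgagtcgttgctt
KIF4A, chrX:70289984-70290103, plus strand: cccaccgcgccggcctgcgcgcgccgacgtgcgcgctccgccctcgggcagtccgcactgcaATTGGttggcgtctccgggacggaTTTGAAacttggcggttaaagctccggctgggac
KIF3A, chr5:132737547-132737666, minus strand: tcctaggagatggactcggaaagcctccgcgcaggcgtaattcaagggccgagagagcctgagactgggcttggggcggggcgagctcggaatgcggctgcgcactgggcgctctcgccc
KIF3B, chr20:32277531-32277650, plus strand: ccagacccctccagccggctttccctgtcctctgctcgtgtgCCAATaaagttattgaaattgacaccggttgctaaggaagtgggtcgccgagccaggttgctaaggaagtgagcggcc
Each of the 5 mitotic promoters holds a CHR hexamer with a CCAAT upstream of it. KIF3B has a CCAAT alone and KIF3A has neither.

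RefSeq windows from 250 bases before to 50 bases after the gene start were given for 33 of the 41 kinesins. A CHR hexamer on either strand was present in 11 of 13 mitotic kinesins, all except KIF22 and KIF2B. Among transport kinesins 2 of 11 held it, KIF5B and KIF16B, and among the other kinesins 0 of 9. Of the 27305 genes with a window, 24.3% held it. CCAAT was present in 10 of 13 mitotic, 3 of 11 transport and 3 of 9 other kinesins, and in 35.7% of all genes. Both elements stood together in 9 of 13 mitotic kinesins (69.2%), in 1 of 11 transport kinesins, KIF5B, and in 9.49% of all genes. These are matches of letters and were not tested as binding sites.

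The deposited log2 values had array medians from 6.13 to 6.24, and no pair of arrays was identical. A gene was tested where it reached the limit of 6.18 on at least 3 of the 120 arrays. Of the 41 kinesins 37 were tested, which were 12 mitotic, 14 transport and 11 other kinesins, and 30 of these reached the limit on all 120 arrays. KIF26A passed with 8 arrays, and each of the other 6 reached it on at least 91. The mitotic kinesin KIF2B, the transport kinesin KIF16B, the centriolar KIF24 and KIF27 were below it on every array and were not tested, so no change is given for them. The B cell markers CD79A, CD79B, MS4A1, PAX5 and CD22 were above the limit on all 120 arrays, and CD14, LYZ, FCGR1A, CD3G, EPCAM, KRT19, SYT1 and NEFL on 0. Among markers of the other cell types, CSF1R, CDH1, KRT8, SNAP25 and RBFOX3 were above it on all 120 as well, CD3D on 117, CD3E on 52 and CD2 on 3, and their part in the results was not tested. At 4 h, experiment 3 of the untreated cells in the formaldehyde set gave the array that correlated least with its own group, and the formaldehyde counts with and without it differed by at most 1 at the highest dose. The labels do not say that the experiments were separate cultures, so the p-values measure the spread between these arrays.

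Changes below are differences in log2 value, treated minus untreated of the same chemical and time, with standard errors and p-values from limma, adjusted by Benjamini-Hochberg over the 14023 genes tested. A gene is said to rise or fall where the adjusted p is under 0.05. The 3 doses of a chemical share their untreated arrays, so their values are given side by side. In RNA from whole cultures, fewer cells of a type and less RNA per cell cannot be told apart, and this applies to every mitotic gene below.

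**Figure D1:**
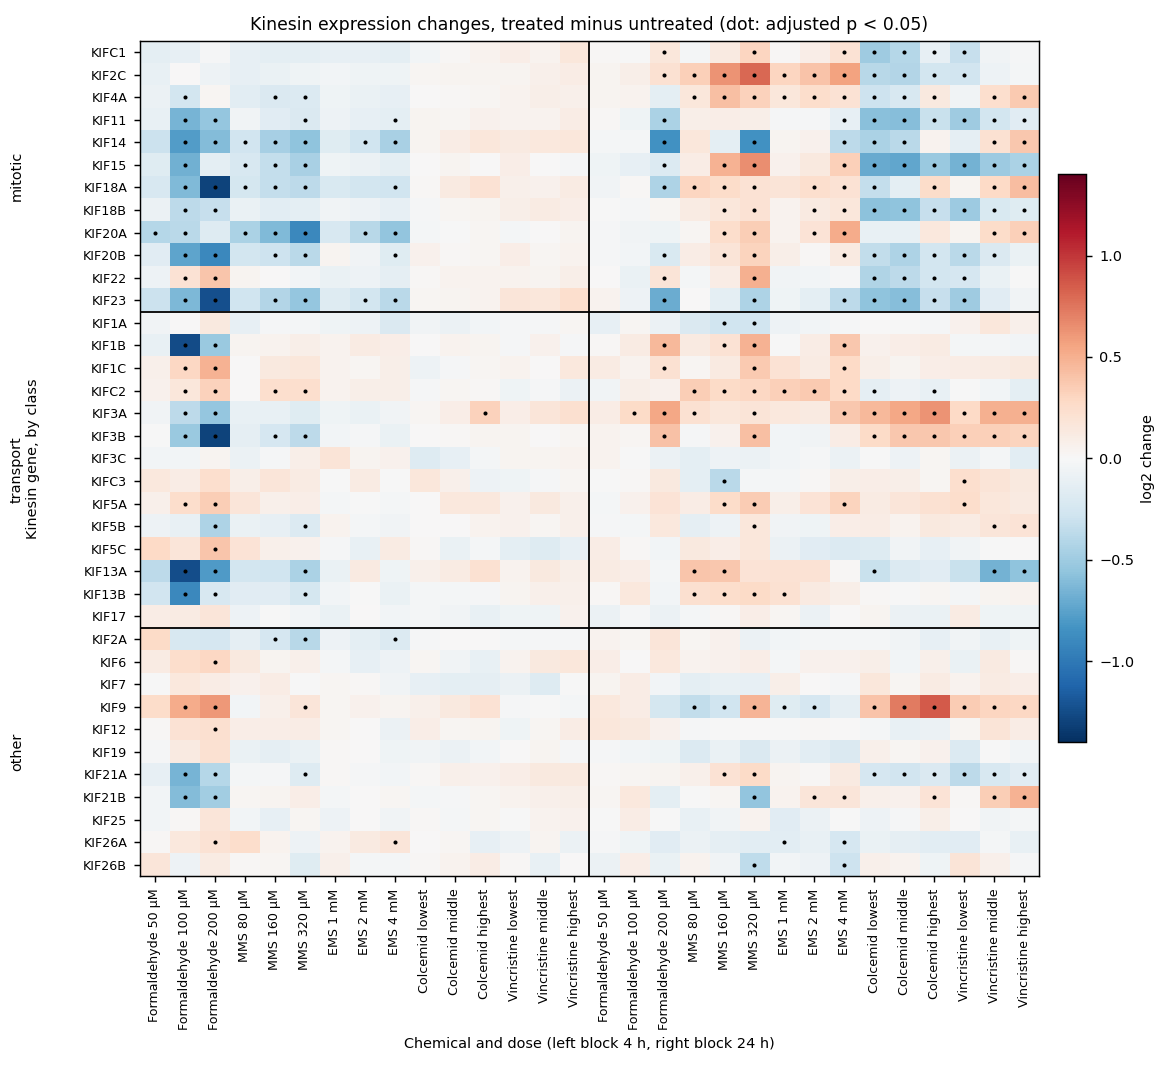
Log2 change against the untreated arrays (colour) of the 37 tested kinesins (rows, by class) in the 30 comparisons of dose and time (columns, 4 h on the left and 24 h on the right), with dots on the changes at adjusted p under 0.05. At 4 h the mitotic rows are mostly below 0 under formaldehyde, MMS and EMS and carry no dot under colcemid or vincristine. At 24 h dots are spread over all 5 chemicals.

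Formaldehyde was compared with untreated cells to see how kinesin transcripts answered this cross-linking agent across doses. At 4 h the mitotic kinesins that were called were mostly lower, while the transport kinesins split into some that rose and some that fell. For several genes the middle dose lowered the transcript more than the highest. KIF18A, KIF3B and KIF23 fell most at 200 µM, to 0.406, 0.408 and 0.425 of their untreated levels, while KIF1B and KIF13A fell most at 100 µM. By 24 h KIF3A, KIF3B and KIF1B were above untreated, while KIF14, KIF23, KIF11 and KIF18A were still below.

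At 50 µM and 4 h a single kinesin of the 37 was called, KIF20A, against 0.82% of all genes tested. With the replicate block 2 were called, the other being KIF14 (-0.31, adjusted p = 0.025). For KIF20A the untreated arrays read 9.92, 10.08 and 10.06, and those at 50 µM read 9.72, 9.68 and 9.46. The groups did not overlap and the change was -0.40 ± 0.08 (SE, n = 3 arrays per group, limma adjusted p = 0.022). At 100 µM KIF20A read 9.68, 9.71 and 9.51, a change of -0.38. At 200 µM it read 9.77, 10.03 and 9.72, so the highest dose overlapped the untreated arrays (-0.18, adjusted p = 0.058, or 0.035 with the experiment as a replicate block). The lower doses gave the lower KIF20A values.

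At 100 µM and 4 h, 9 of 12 mitotic kinesins fell and 1 rose, with a median change of -0.50, when 40.7% of all genes were called (20.9% higher and 19.8% lower). Transport kinesins split into 3 that rose and 5 that fell, with a median of -0.01. At 200 µM, 6 mitotic kinesins fell and 1 rose (median -0.25), and 4 transport kinesins rose and 6 fell (median 0.08), when 53.8% of all genes were called (29.6% higher and 24.2% lower) and the median over all genes was 0.08. The mitotic kinesin that rose at both doses was KIF22, which pushes chromosome arms from the poles, by 0.20 and 0.39 ± 0.06.

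KIF23 was lower at each dose and was called at 100 and 200 µM (-0.63 and -1.23 ± 0.08). Untreated arrays read 9.69, 9.72 and 9.85, those at 50 µM 9.42, 9.49 and 9.44, those at 100 µM 9.04, 9.24 and 9.10, and those at 200 µM 8.48, 8.70 and 8.37. No dose overlapped the next in these arrays. KIF18A behaved alike at the upper doses. It read 9.18, 9.05 and 8.93 untreated, 8.42, 8.54 and 8.34 at 100 µM (-0.62) and 7.77, 7.90 and 7.59 at 200 µM (-1.30 ± 0.10, adjusted p = 4.6e-10, a fold of 0.406). KIF20B, a motor of cytokinesis, fell by 0.73 at 100 µM and by 0.91 at 200 µM.

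Other mitotic kinesins were lower at 100 µM than at 200 µM. KIF15, which backs up KIF11 in holding the spindle bipolar, fell by 0.67 at 100 µM and had a change of -0.14 at 200 µM (adjusted p = 0.08, or 0.027 with the replicate block). KIF14, a motor of cytokinesis, fell by 0.78 and by 0.60, and KIF11 fell by 0.66 and by 0.54. In the direct comparison of 200 µM with 100 µM at 4 h, 4 mitotic kinesins were higher and 2 lower at the higher dose, and 34.9% of all genes differed.

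The transport kinesins with the largest early falls belonged to different families. KIF3B read 10.06, 10.10 and 9.86 untreated, 10.04, 10.03 and 9.94 at 50 µM, 9.45, 9.56 and 9.46 at 100 µM and 8.55, 8.93 and 8.66 at 200 µM. It overlapped untreated at 50 µM and fell at 100 µM (-0.52) and 200 µM (-1.29 ± 0.08, adjusted p = 1.1e-11, a fold of 0.408). Its second probe set gave -1.18 at 200 µM. Its partner KIF3A read 8.57, 8.69 and 8.79 untreated and 8.13, 8.23 and 8.07 at 200 µM (-0.54), but the other probe set of KIF3A gave 0.07, which was not called.

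KIF1B, which carries mitochondria and synaptic vesicle precursors, was lowest at the middle dose. It read 7.44, 7.12 and 7.19 untreated, 5.84, 6.05 and 6.08 at 100 µM and 6.59, 6.80 and 6.81 at 200 µM. The values at 100 µM were below the limit of 6.18, and the changes were -1.26 ± 0.09 and -0.52. KIF13A, a motor of recycling endosomes, had the same order: 7.31, 7.19 and 6.96 untreated, 5.49, 6.21 and 6.04 at 100 µM (-1.25 ± 0.13) and 6.30, 6.43 and 6.37 at 200 µM (-0.79). At 100 µM 5.49 and 6.04 were below the limit. The other probe sets of KIF13A were not called at 200 µM (0.15 and 0.03). KIF13B, its close relative, fell by 0.90 at 100 µM and by 0.23 at 200 µM.

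Several transport and other kinesins rose at 4 h. KIF1C, which moves vesicles between the Golgi and the cell periphery, rose by 0.49 at 200 µM. KIF5A and KIF5C, heavy chains of conventional kinesin best known from neurons, rose by 0.35 and 0.39, while the ubiquitous heavy chain KIF5B fell by 0.44. KIF9, an axonemal kinesin, rose by 0.61, although its untreated arrays were spread (9.52, 9.42 and 8.81).

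At 24 h no kinesin was called at 50 µM (limma, 0.0% of all genes called, and 0 of 37 kinesins at an unadjusted p under 0.05). At 100 µM the only call was KIF3A, which rose by 0.27 when 3.81% of all genes were called. At 200 µM, 6 mitotic kinesins fell and 3 rose, and 4 transport kinesins rose and none fell, when 47.7% of all genes were called (23.8% higher and 23.9% lower). Without experiment 3 the mitotic count was 5 instead of 9.

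KIF14 had the largest fall at 24 h. It read 9.72, 9.87 and 9.83 untreated and 8.91, 9.15 and 8.81 at 200 µM (-0.85 ± 0.09, adjusted p = 4.7e-08), and its second probe set gave -1.03. KIF23 read 9.38, 9.40 and 9.49 untreated and 8.78, 8.80 and 8.62 at 200 µM (-0.69), and KIF18A fell by 0.43. The microtubule depolymerase KIF2C, which had a change of -0.08 at 4 h that was not called, rose by 0.21 ± 0.05 at 24 h (adjusted p = 0.0014). KIFC1, the motor that clusters spindle poles, rose by 0.16, but its groups overlapped and it was not called without experiment 1 or without experiment 3. KIF4A had a change of -0.14 (adjusted p = 0.073, or 0.032 with the replicate block).

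KIF3A and KIF3B were above untreated at 24 h. KIF3A read 8.29, 8.36 and 8.51 untreated, 8.55, 8.71 and 8.71 at 100 µM and 8.95, 8.94 and 8.90 at 200 µM (0.54 ± 0.07, adjusted p = 1.5e-06). KIF3B read 9.51, 9.69 and 9.49 untreated and 9.96, 9.95 and 9.999 at 200 µM (0.41). KIF1B read 7.07, 7.22 and 7.07 untreated and 7.51, 7.59 and 7.63 at 200 µM (0.46). In each of these 3 genes the 200 µM arrays lay above all untreated arrays. The difference between the 3′ and 5′ probe sets of ACTB, a sign of RNA integrity, was 0.768 at 200 µM and 0.481 in untreated cells at 24 h, and its part in these results was not tested.

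**Figure D2:**
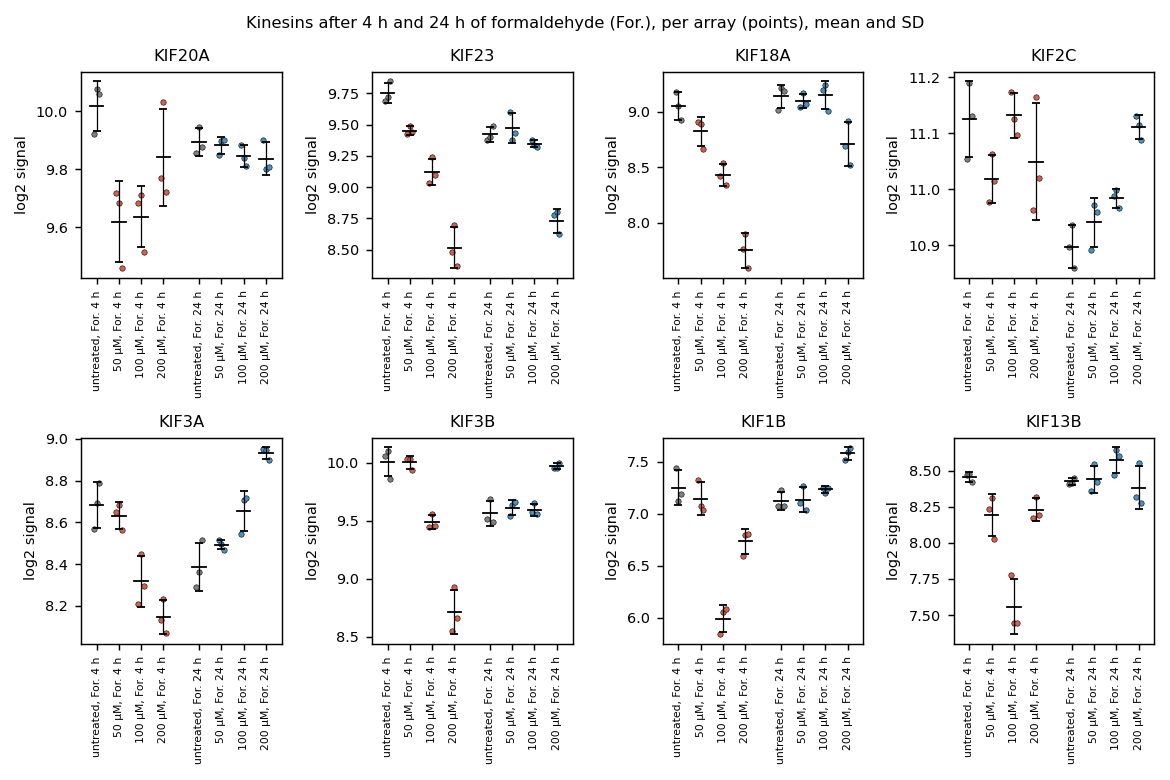
Log2 expression on each array (points) with the mean and SD (bars) for KIF20A, KIF23, KIF18A, KIF2C, KIF3A, KIF3B, KIF1B and KIF13B in untreated cells and at 50, 100 and 200 µM formaldehyde, at 4 h and 24 h. At 4 h KIF23, KIF18A and KIF3B step down to 200 µM, while KIF1B and KIF13B are lowest at 100 µM. At 24 h KIF3A, KIF3B and KIF1B lie above untreated at 200 µM.

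MMS and EMS were each compared with untreated cells to describe the kinesins under alkylation damage. Both lowered mitotic kinesins at 4 h, KIF20A most. At the highest dose both left most mitotic kinesins above untreated at 24 h, led by KIF2C. KIF14 and KIF23 were below untreated there at both times. Of 14 transport kinesins 5 changed at 4 h at the highest dose of MMS and 0 at that of EMS, when 28.6% and 9.6% of all genes changed. At 24 h 8 and 5 rose, when 30.8% and 27.8% of all genes rose. The 5 under MMS at 4 h and the 5 under EMS at 24 h are thus not far from the background. The doses of MMS and EMS differ, so their values stand side by side without a comparison.

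At 4 h the count of mitotic kinesins that fell was 4, 7 and 8 of 12 at 80, 160 and 320 µM MMS, with 0 higher at each dose, when 1.6%, 13.5% and 28.6% of all genes were called (13.4% lower at 320 µM). The median changes were -0.19, -0.25 and -0.28. Under 1, 2 and 4 mM EMS it was 0, 3 and 6 of 12, again with 0 higher, when 0.143%, 1.06% and 9.6% of all genes were called (4.05% lower at 4 mM). At 1 mM EMS 4 of the 12 had an unadjusted p under 0.05. At the highest dose of EMS the count was 3 without experiment 1. Among 14 transport kinesins the highest dose of MMS gave 1 higher and 4 lower (2 in all without experiment 1). EMS gave none called by limma at 4 mM, where 1 had an unadjusted p under 0.05 and 1 was called with the replicate block.

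KIF20A fell with each dose of MMS at 4 h. Untreated arrays read 9.84, 9.85 and 9.75, those at 80 µM 9.38, 9.45 and 9.28, those at 160 µM 9.20, 9.18 and 9.20, and those at 320 µM 8.92, 8.98 and 8.85. The 4 groups did not overlap, and the change at 320 µM was -0.90 ± 0.06 (adjusted p = 1.3e-10, a fold of 0.537). Under EMS the untreated arrays read 9.75, 9.76 and 9.58, and the doses of 1, 2 and 4 mM read 9.50, 9.48 and 9.44, then 9.37, 9.31 and 9.24, then 9.20, 9.19 and 9.07. The first of these doses was not called (adjusted p = 0.14, or 0.016 with the replicate block), and the changes at 2 and 4 mM were -0.39 and -0.55 ± 0.05 (adjusted p = 8.5e-07).

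Other mitotic kinesins fell less than KIF20A. At 320 µM MMS KIF14 fell by 0.56, KIF23 by 0.55, KIF15 by 0.46, and KIF20B and KIF18A by 0.37 each. At 4 mM EMS KIF14 fell by 0.46, KIF23 by 0.38 and KIF18A by 0.28, the last not called without experiment 1 or without experiment 2, and KIF15 had -0.14, which was not called. KIF11 fell by 0.20 under MMS and by 0.14 under EMS. These KIF11 calls were lost without experiment 1 or 2 under MMS and without any experiment under EMS. KIF2C was not called at 4 h at any dose of either chemical. Of the transport kinesins KIF13A had the largest change at 320 µM MMS, -0.44, which without experiment 1 was -0.17 and not called. KIF3B fell there too: its untreated arrays read 9.92, 9.999 and 9.85, and those at 320 µM read 9.57, 9.54 and 9.56 (-0.37 ± 0.05).

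At 24 h more of the called mitotic kinesins rose than fell at each dose. Under 80, 160 and 320 µM MMS 3, 7 and 9 of 12 mitotic kinesins rose and 0, 0 and 2 fell, when 28.5%, 47.3% and 58.5% of all genes were called (30.8% higher and 27.7% lower at 320 µM), and the medians were 0.11, 0.17 and 0.31. Under 1, 2 and 4 mM EMS 2, 5 and 8 rose and 0, 0 and 3 fell, when 24.3%, 34.6% and 51.5% of all genes were called (27.8% higher and 23.6% lower at 4 mM). Of all 14023 genes 2469 and 3605 rose at 80 and 160 µM MMS, and 2154 and 2792 at 1 and 2 mM EMS. The mitotic counts at 80 µM MMS and 1 mM EMS are thus not far from the background. At 4 mM EMS the count of calls was 11, and 7 without experiment 1 or without experiment 3. Transport kinesins that rose numbered 4, 5 and 8 of 14 under MMS, with 0, 2 and 1 lower. Under EMS they numbered 2, 1 and 5, with 0 lower at each dose. With the replicate block 4 instead of 1 were called at 2 mM EMS. Without experiment 3 the transport calls at 320 µM MMS were 5 instead of 9.

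KIF2C, which removes faulty attachments between chromosomes and spindle, rose at every dose of both. Under MMS it read 10.95, 11.05 and 10.89 untreated, 11.25, 11.36 and 11.28 at 80 µM, 11.48, 11.66 and 11.62 at 160 µM and 11.78, 11.85 and 11.66 at 320 µM. Each treated group lay above the untreated arrays, and the groups at 160 and 320 µM overlapped each other (0.80 ± 0.06 at 320 µM, adjusted p = 5.4e-11, a fold of 1.74). Under EMS it read 10.80, 10.86 and 10.80 untreated and 11.42, 11.34 and 11.40 at 4 mM (0.57 ± 0.04, adjusted p = 1.6e-11). The second probe set of KIF2C rose too, by 0.68 under MMS and 0.53 under EMS.

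KIF20A, the gene that had fallen most at 4 h, was above untreated at 24 h. Under MMS it read 9.98, 10.02 and 9.84 untreated and 10.37, 10.28 and 10.23 at 320 µM (0.35 ± 0.06). Under EMS it read 9.89, 9.93 and 9.88 untreated and 10.45, 10.45 and 10.36 at 4 mM (0.52 ± 0.05, a fold of 1.43). KIF15 read 9.78, 9.88 and 9.72 untreated and 10.47, 10.34 and 10.51 at 320 µM MMS (0.65), and rose by 0.34 at 4 mM EMS. KIF4A rose by 0.32 and by 0.20, and KIF18A by 0.20 under each, but the KIF18A calls were lost without experiment 3, under EMS also without experiment 1. The KIF4A call under EMS was lost without experiment 2.

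KIF14 and KIF23 went the other way from KIF2C. KIF14 read 10.16, 10.08 and 10.13 untreated and 9.30, 9.16 and 9.39 at 320 µM MMS (-0.84 ± 0.06, adjusted p = 1.2e-10, and -0.93 by its second probe set). At 4 mM EMS it read 9.51, 9.71 and 9.57 against 9.91, 9.999 and 9.99 untreated (-0.37). KIF23 fell by 0.43 under MMS and by 0.37 under EMS. Its MMS value was -0.28 and not called without experiment 2, and its second probe set was not called under EMS (0.02). KIF11 had a change of 0.08 under MMS that was not called, and fell by 0.12 under EMS, a call lost without any single experiment.

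Among transport kinesins at 24 h KIF3B read 9.63, 9.69 and 9.54 untreated and 10.11, 9.99 and 10.05 at 320 µM MMS (0.43), and its second probe set rose by 0.76. KIF1B rose by 0.49 under MMS and 0.38 under EMS, KIF1C by 0.36 and 0.28, and KIF5A by 0.36 and 0.32. KIFC2, a minus-end motor, was above untreated from the lowest dose: it read 7.89, 7.94 and 7.99 untreated, 8.27, 8.28 and 8.31 at 80 µM and 8.34, 8.22 and 8.13 at 320 µM MMS (0.29). Under EMS KIFC2 rose by 0.34, 0.36 and 0.28 across the doses. KIF3A rose by 0.37 under EMS. KIF21B, a regulator of microtubule growth in lymphocytes and neurons, read 8.53, 8.52 and 8.57 untreated and 7.997, 7.89 and 8.06 at 320 µM MMS (-0.55), whereas at 4 mM EMS it rose by 0.17, a call lost without experiment 1. The ACTB 3′ to 5′ difference at 24 h was 1.06, 1.28 and 1.88 across the MMS doses against 0.941 untreated, and 0.664 at 4 mM EMS against 0.521. Its part in the 24 h results was not tested.

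Colcemid and vincristine were compared with untreated cells to see how kinesins answered loss of the microtubules they work on. At 4 h almost nothing was called. At 24 h the lowest dose of either lowered most mitotic kinesins. The highest dose lowered fewer of them: KIF14, KIF18A, KIF4A and KIF20A then had mean changes above 0, and KIF11 and KIF15 stayed below untreated. The transport kinesins KIF3A and KIF3B rose at 24 h.

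At 4 h the lowest and middle dose of colcemid and all doses of vincristine gave 0 called kinesins of 37 by limma, when 0.0% and 0.0642% of all genes were called under colcemid and 0.0%, 0.00713% and 0.25% under vincristine. An unadjusted p under 0.05 was found for 1 and 1 kinesins under colcemid and for 1, 6 and 7 under vincristine. At the highest dose of colcemid, when 0.913% of all genes were called, KIF3A alone was called. It read 8.72, 8.72 and 8.69 untreated and 8.99, 9.06 and 9.05 treated (0.32, adjusted p = 0.0012). The call was lost without experiment 2 or 3 and with the mean of its probe sets (0.27, adjusted p = 0.23). With the replicate block 2 mitotic kinesins were called there, KIF18A (0.20, adjusted p = 0.033) and KIF14 (0.16, adjusted p = 0.049), and 4 of the 37 kinesins in all.

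At 24 h, 11, 10 and 8 of 12 mitotic kinesins fell under the lowest, middle and highest dose of colcemid, and 0, 0 and 2 rose. The share of all genes called was 37.3%, 37.7% and 36.4%, of which 20.7%, 20.3% and 18.3% were lower, and the mitotic medians were -0.43, -0.40 and -0.26. Under vincristine 8, 4 and 3 fell and 0, 4 and 4 rose, when 37.4%, 36.9% and 35.7% of all genes were called (20.8%, 19.5% and 18.2% lower), with mitotic medians of -0.30, -0.08 and -0.02. Transport kinesins had 2, 2 and 2 higher and 2, 0 and 1 lower of 14 under colcemid, and 4, 3 and 3 higher and 0, 1 and 1 lower under vincristine.

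KIF11 and KIF15, the motors that hold the spindle bipolar, were below untreated at every dose. KIF11 read 10.70, 10.70 and 10.70 untreated, and 10.11, 10.08 and 10.17, then 10.09, 10.07 and 10.15, then 10.45, 10.34 and 10.36 across the colcemid doses. Its change at the middle dose was -0.59 ± 0.03 (adjusted p = 2.8e-11), and at the highest -0.31. Under vincristine it read 10.68, 10.74 and 10.71 untreated, 10.19, 10.18 and 10.25 at the lowest dose and 10.55, 10.53 and 10.57 at the highest (-0.50 and -0.16, the latter lost without experiment 2). KIF15 fell by 0.70, 0.73 and 0.52 across the colcemid doses and by 0.66, 0.51 and 0.44 across the vincristine doses.

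Among the treated groups KIF14 had a higher mean at each higher dose of either aneugen. It read 9.88, 9.84 and 9.86 untreated, 9.37, 9.49 and 9.39 at the lowest, 9.49, 9.48 and 9.47 at the middle and 9.92, 9.96 and 9.83 at the highest dose of colcemid. It was thus below untreated at the lower doses (-0.44 and -0.38) and overlapped untreated at the highest (0.04). Under vincristine it read 9.74, 9.84 and 9.82 untreated, 9.59, 9.72 and 9.69 at the lowest, 10.04, 10.06 and 9.94 at the middle and 10.11, 10.27 and 10.14 at the highest dose. The last groups lay above untreated (0.22 and 0.37 ± 0.06, adjusted p = 5.4e-05).

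KIF18A was also higher at the highest dose than at the lowest under both aneugens. Under colcemid it read 9.09, 9.21 and 9.05 untreated, 8.71, 8.87 and 8.77 at the lowest dose (-0.33) and 9.37, 9.46 and 9.31 at the highest (0.26, a call lost without experiment 1). Under vincristine it read 8.95, 9.14 and 9.13 untreated and 9.52, 9.56 and 9.42 at the highest dose (0.43 ± 0.08, adjusted p = 0.00013). KIF4A rose by 0.36 ± 0.05 and KIF20A by 0.34 ± 0.05 at the highest dose of vincristine. Under the highest dose of colcemid KIF4A had 0.13, with groups that overlapped and a call lost without any experiment, and KIF20A had 0.14 (adjusted p = 0.06, or 0.0042 with the replicate block).

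Of the remaining mitotic kinesins KIF2C fell by 0.39, 0.41 and 0.26 across the colcemid doses, and by 0.27 at the lowest dose of vincristine. At the highest dose of vincristine KIF2C had a change of -0.03, which was not called. KIF18B, which shortens astral microtubules, fell at every dose of both, by 0.57 at the lowest dose of colcemid and by 0.50 at the lowest of vincristine. KIFC1 fell by 0.49 at the lowest dose of colcemid and by 0.33 at the lowest of vincristine. At the highest dose of colcemid KIFC1 had -0.12, a call lost without any experiment, and at the highest of vincristine -0.01. KIF23 fell by 0.32 at the highest dose of colcemid, but its second probe set gave 0.25, not called, and the mean of its probe sets -0.03.

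The highest dose was compared directly with the lowest, a comparison chosen after values had been seen. At 24 h 11 of 12 mitotic kinesins were higher at the highest dose of colcemid, all except KIF20B, when 13.7% of all genes differed (8.17% higher). Under vincristine 12 of 12 were higher, when 13.6% of all genes differed (8.17% higher). The transport kinesins had 1 of 14 higher under each. KIF18A differed by 0.59 (95% interval 0.43 to 0.75, adjusted p = 2.1e-05) and KIF14 by 0.49 (0.37 to 0.61) between the colcemid doses, and KIF14 by 0.50 (0.38 to 0.63) and KIF23 by 0.44 between the vincristine doses. In the comparison of highest with middle dose, 11 of 12 mitotic kinesins were higher under colcemid, all except KIF22, when 6.87% of all genes differed (4.42% higher). Under vincristine 0 of 12 were called by limma in that comparison, when 0.0% of all genes were called, and 4 of 12 had an unadjusted p under 0.05.

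**Figure D3:**
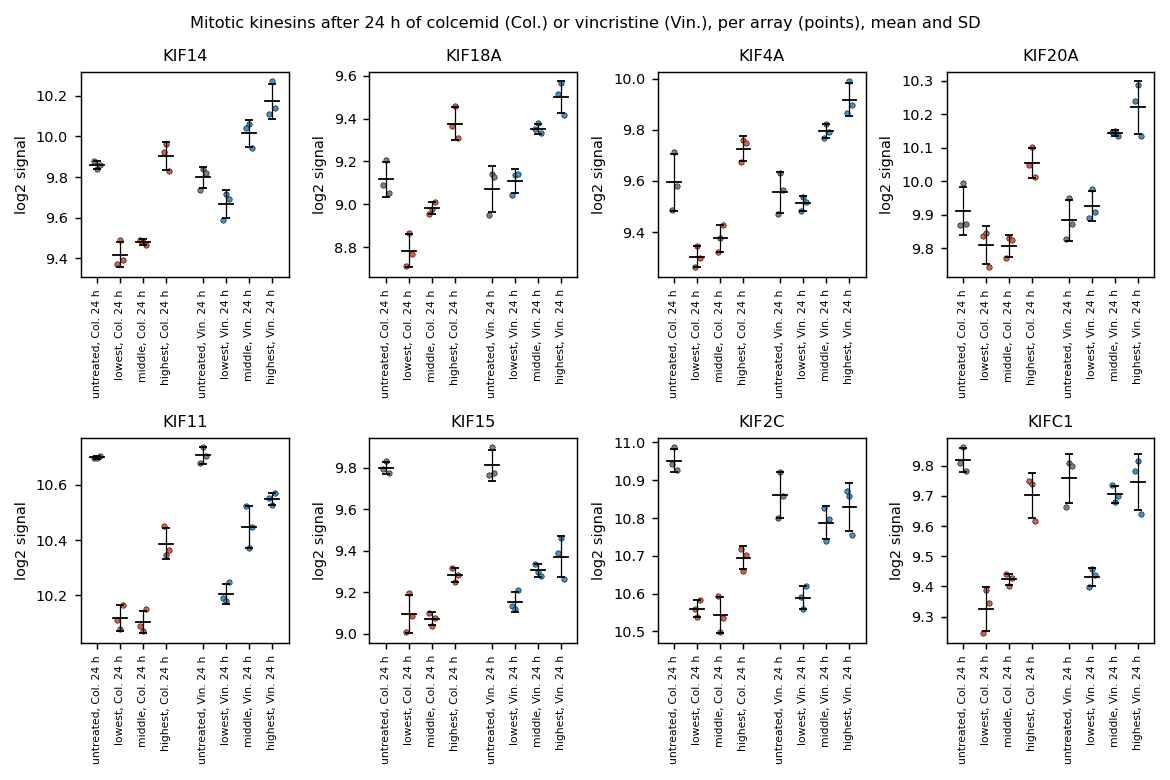
Log2 expression at 24 h on each array (points) with the mean and SD (bars) of 8 mitotic kinesins in untreated cells and at the lowest, middle and highest dose of colcemid and vincristine. KIF11 and KIF15 stay below untreated throughout, while KIF14, KIF18A, KIF4A and KIF20A are higher at the highest dose than at the lowest.

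KIF3A and KIF3B rose in all 3 experiments under both aneugens. KIF3A read 8.34, 8.38 and 8.50 untreated, 8.78, 8.92 and 8.89 at the lowest, 8.83, 8.99 and 9.02 at the middle and 8.98, 9.06 and 9.07 at the highest dose of colcemid (0.63 ± 0.05, adjusted p = 4e-09). Under vincristine it read 8.43, 8.60 and 8.44 untreated and 8.95, 9.02 and 8.99 at the highest dose (0.50 ± 0.06). Its second probe set gave 0.59 and 0.51 at the highest doses. KIF3B rose by 0.37 and by 0.31, and its second probe set by 0.52 and 0.50. In neither chemical did the highest dose overlap untreated for KIF3A or KIF3B.

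KIF9 had the largest change of any kinesin under colcemid. It read 9.27, 9.29 and 9.22 untreated, 9.60, 9.75 and 9.63 at the lowest, 9.9995, 10.002 and 9.95 at the middle and 10.14, 10.08 and 10.12 at the highest dose (0.85 ± 0.05, adjusted p = 9.2e-11). Another probe set of KIF9 gave 0.05 in the same comparison (adjusted p = 0.76). Under the highest dose of vincristine KIF9 read 9.49, 9.51 and 9.32 against 9.07, 9.22 and 9.17 untreated (0.28). KIF21B rose by 0.49 ± 0.07 at the highest dose of vincristine, from 8.48, 8.72 and 8.57 to 9.05, 9.13 and 9.06. KIF13A read 7.15, 7.13 and 7.01 untreated and 6.53, 6.63 and 6.42 there (-0.57), but its other probe sets gave 0.06 and 0.07, not called. ACTB 3′ to 5′ differences at 24 h were 0.548, 0.519 and 0.512 across the colcemid doses against 0.540 untreated.

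**Figure D4:**
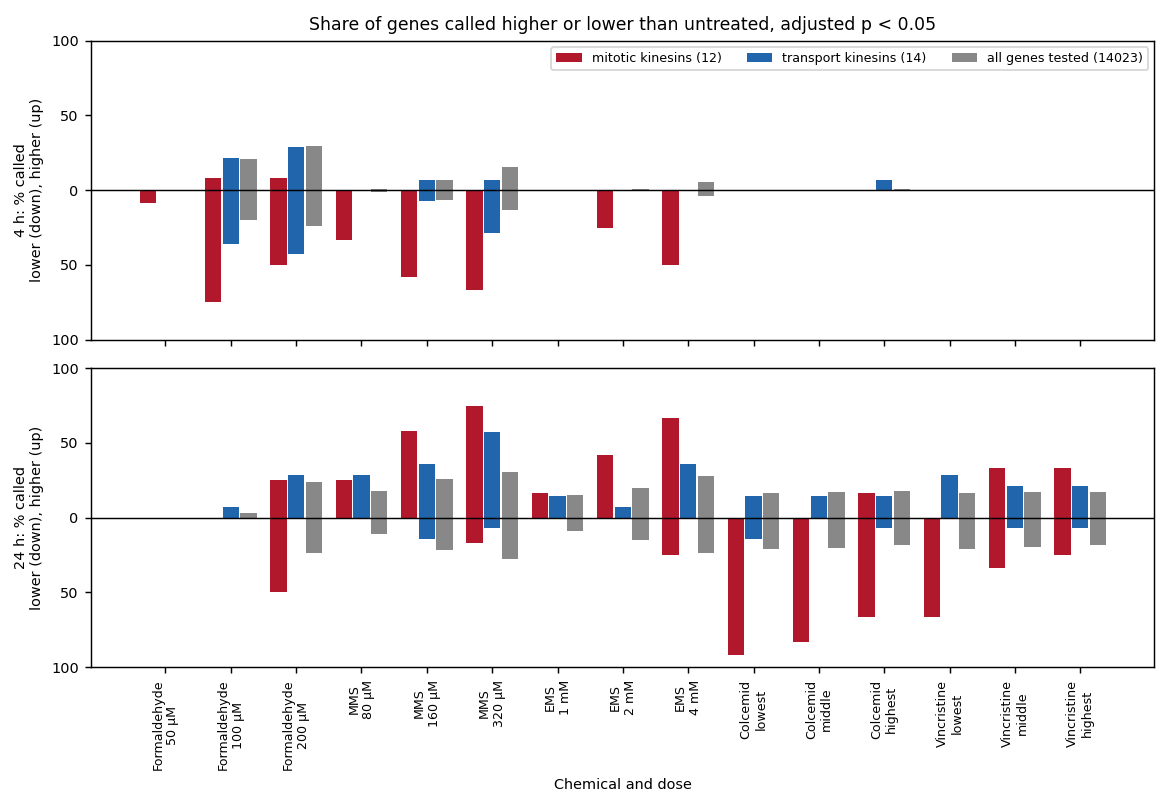
Percentage of genes called higher (upward bars) and lower (downward bars) among the 12 mitotic kinesins, the 14 transport kinesins and all 14023 genes tested, for every chemical and dose at 4 h (top) and 24 h (bottom). Called mitotic kinesins are lower at 4 h under MMS and EMS, more often higher than lower at 24 h under MMS and EMS, and more often lower than higher at 24 h under colcemid.

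Whether a change differed between the times was tested directly at the highest dose, as the change at 24 h minus the change at 4 h. Under MMS 10 of 12 mitotic kinesins had a higher change at 24 h and 1 a lower, when 45.2% of all genes differed (25.6% higher), and under EMS 8 had a higher and 0 a lower, when 38.3% differed (21.4% higher). Under formaldehyde 5 were higher and 1 lower, when 53.3% differed (3620 of 14023 genes higher and 3857 lower). The number that differed under formaldehyde is thus near the background. Colcemid had the opposite of MMS and EMS, with 0 higher and 7 lower, when 22.5% differed (1681 genes lower). With the mean of probe sets 4 were lower under colcemid. Vincristine had 3 higher and 4 lower, when 22.4% differed (1409 genes higher and 1738 lower), and 3 in all without experiment 1 or without experiment 2.

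KIF20A had the largest such difference under both alkylating agents, 1.24 ± 0.08 under MMS (limma adjusted p = 6.2e-11) and 1.07 ± 0.08 under EMS (9.5e-10). KIF15 followed under MMS with 1.10 and KIF2C with 0.86. Under formaldehyde transport kinesins led: KIF3B had 1.70 ± 0.11, KIF3A 1.08 and KIF1B 0.97. The KIF3A value rests on its brightest probe set, as the other was not called at 4 h. KIF15 had -0.52 under colcemid and -0.42 under vincristine, and KIF11 -0.37 and -0.26. KIF9 had -0.85 under formaldehyde, where its untreated 4 h arrays were spread. It had 0.65 under colcemid, where another of its probe sets was not called at 24 h.

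**Figure D5:**
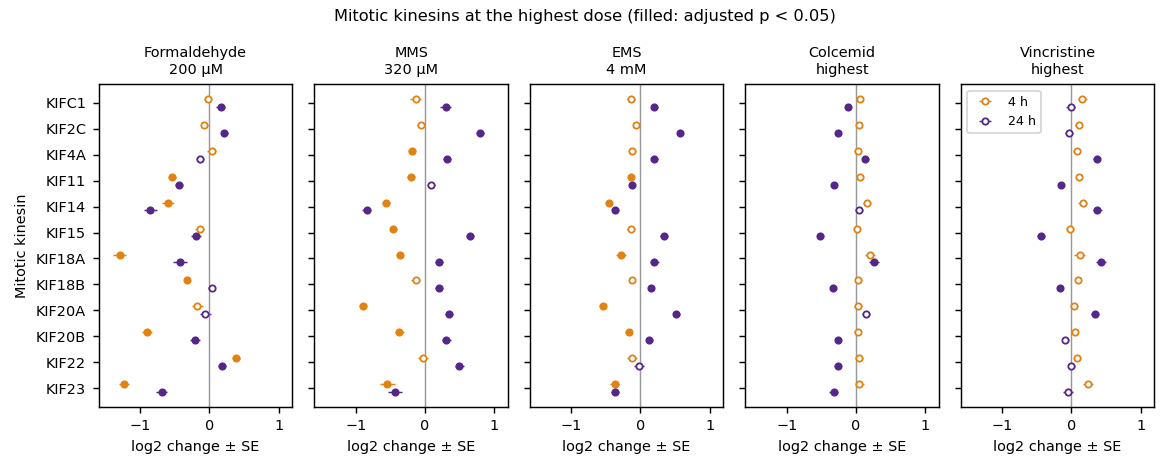
Log2 change against untreated at the highest dose of each chemical with its SE for the 12 tested mitotic kinesins, at 4 h (orange) and 24 h (purple), with filled points where the adjusted p is under 0.05. Under MMS and EMS KIF20A lies below 0 at 4 h and above 0 at 24 h, and under colcemid KIF11 and KIF15 lie near 0 at 4 h and below 0 at 24 h.

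The untreated arrays give the drift of each gene without treatment. Between 4 h and 24 h KIF3B fell in all 5 sets, by 0.44 in the formaldehyde, 0.30 in the MMS, 0.25 in the EMS, 0.46 in the colcemid and 0.45 in the vincristine set. KIF5B fell in all 5 sets as well, by 0.20 to 0.34, and KIF3A in 4 of 5, with -0.13 in the vincristine set (adjusted p = 0.14). No transport kinesin rose between these times in any set, while 3 to 5 of 14 fell, when 29.5%, 32.2%, 29.9%, 35.0% and 32.9% of all genes differed in these sets. Mitotic kinesins drifted differently by set: 1 rose and 4 fell in the formaldehyde set, 1 and 0 in the MMS, 5 and 0 in the EMS, 2 and 7 in the colcemid and 2 and 5 in the vincristine set. The 24 h changes above are against the untreated arrays of the same time.

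Colcemid and vincristine were compared with each other at their highest doses, in a fit of 48 arrays. At 4 h no kinesin differed (0.057% of all genes did, and 1 of 37 kinesins had an unadjusted p under 0.05). At 24 h, when 2.02% of all genes differed, 2 kinesins did. KIF14 was lower under colcemid by 0.33 on the log2 scale (difference -0.33, 95% interval -0.50 to -0.16, adjusted p = 0.027), and KIF9 was higher by 0.57 (0.39 to 0.74, adjusted p = 4e-05). The KIF9 value rests on its brightest probe set, as another was not called under the highest dose of colcemid. All 12 mitotic kinesins had a difference below 0, with a median of -0.18, but the other 11 were not called, although 9 of the 12 had an unadjusted p under 0.05. The interval was -0.25 to -0.06 for KIF11, -0.39 to 0.06 for KIF18A, -0.23 to 0.08 for KIF15 and -0.03 to 0.30 for KIF3A, so differences of these sizes between the aneugens were not settled by 3 arrays a group.

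The mean change under MMS and EMS was then compared with the mean change under colcemid and vincristine, all at the highest dose, in a fit of 96 arrays. At 4 h 11 of 12 mitotic kinesins were lower under the clastogens and 0 higher, when 23.6% of all genes differed (12.7% lower). KIF20A differed by -0.76 ± 0.05 (95% interval -0.87 to -0.65, adjusted p = 5.1e-19), KIF14 by -0.67, KIF23 by -0.60 and KIF18A by -0.48. Of 14 transport kinesins 1 was higher and 5 lower. At 24 h 8 mitotic kinesins were higher under the clastogens and 2 lower, when 54.6% of all genes differed (29.9% higher and 24.7% lower). KIF15 led with 0.97 (0.87 to 1.08) and KIF2C with 0.83 (0.74 to 0.92), while KIF14 had -0.81 (-0.93 to -0.70) and KIF23 -0.22. Transport kinesins had 4 higher and 1 lower.

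Formaldehyde at 200 µM was compared with the same means over all 120 arrays. Against the clastogens at 4 h 3 mitotic kinesins were higher and 5 lower, when 49.5% of all genes differed. KIF20A was higher under formaldehyde by 0.55, while the differences of KIF18A, KIF23 and KIF3B were -0.98, -0.77 and -1.06. At 24 h 10 of 12 mitotic kinesins were lower under formaldehyde and 0 higher, when 37.3% of all genes differed (22.2% lower), with -0.69 for KIF15, -0.63 for KIF18A, -0.49 for KIF20A and -0.47 for KIF2C. Against the aneugens 1 was higher and 8 lower at 4 h (50.6% of all genes differed), and 5 higher and 6 lower at 24 h (39.9%). The doses of different chemicals are not matched in effect, so these are differences of these doses only.

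Genes whose products work with the mitotic kinesins at the spindle were taken as a list. Of 19 tested partners, 10 fell and 1 rose at 200 µM formaldehyde at 4 h, 15 fell and 1 rose at 320 µM MMS, and 12 fell and 0 rose at 4 mM EMS. The shares of all genes that fell in these comparisons were 24.2%, 13.4% and 4.05%. CENPE, itself a kinesin-7 motor of the kinetochore that the symbol rule leaves out, fell by 0.94, 0.96 and 0.79 in these comparisons. At 24 h CENPE was still lower, by 1.04 under formaldehyde, 0.73 under MMS and 0.46 under EMS. The kinetochore gene SKA1 rose by 1.21 under MMS and 0.85 under EMS at 24 h, while the checkpoint kinase BUB1 fell by 1.09 and 0.64. Under the lowest, middle and highest dose of colcemid at 24 h 19, 17 and 8 of 19 partners fell and 0, 0 and 2 rose, and under vincristine 12, 5 and 3 fell and 0, 5 and 10 rose. Over all genes 20.7% and 20.3% fell at the lowest and middle dose of colcemid, and 20.8% and 19.5% at those of vincristine. At the highest dose 18.0% of all genes rose and 18.3% fell under colcemid, and 17.5% rose and 18.2% fell under vincristine. AURKB, the kinase of the passenger complex that KIF20A carries, fell by 0.70 under the highest dose of colcemid and by 0.63 under vincristine, and AURKA rose by 0.39 under vincristine.

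Cargo adaptors and regulators of transport kinesins were split. Of 17 tested, 4 rose and 7 fell at 200 µM formaldehyde at 4 h and 6 rose and 3 fell at 24 h. At 24 h 6 rose and 2 fell at 320 µM MMS and 8 rose and 2 fell at 4 mM EMS. Over all genes 29.6% rose and 24.2% fell under formaldehyde at 4 h. At 24 h 23.8% rose and 23.9% fell under formaldehyde, 30.8% and 27.7% under MMS and 27.8% and 23.6% under EMS, so several of these counts are near the background. FEZ1, a kinesin-1 adaptor, was below the limit on all 30 untreated arrays, where it read 5.04 to 5.72. At 24 h it read 7.30 to 7.39 at 320 µM MMS and 6.72 to 6.89 at 4 mM EMS, and was called higher in both, but the size of these changes is against a level below the limit. TRAK2, which links kinesin-1 to mitochondria, rose by 0.79 under MMS and 0.53 under EMS, while the kinesin light chain KLC1 fell by 0.59 and 0.30. KIFAP3, the accessory subunit that binds KIF3A and KIF3B, fell by 0.57 under vincristine and by 0.24 under colcemid, where both motors rose.

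Dynein and dynactin form the minus-end motor complex, and more of their genes rose than fell at 24 h under the highest dose of each chemical: 11 of 18 rose and 2 fell under formaldehyde, 9 and 1 under MMS, 13 and 2 under EMS, 13 and 1 under colcemid and 12 and 1 under vincristine. The shares of all genes that rose and fell were 23.8% and 23.9%, 30.8% and 27.7%, 27.8% and 23.6%, 18.0% and 18.3%, and 17.5% and 18.2%, in the same order. At 4 h 9 rose and 6 fell under formaldehyde, 5 and 2 under MMS and 3 and 2 under EMS. Over all genes at 4 h 29.6% rose and 24.2% fell under formaldehyde. Under MMS 28.6% were called (13.4% lower), and under EMS 9.6% (4.05% lower), so the count that fell under MMS is near the background. The dynactin subunit DCTN5 rose by 1.35 under MMS, 0.83 under EMS and 0.73 under formaldehyde at 24 h. DCTN3 rose by 0.82 under MMS, 0.43 under colcemid and 0.48 under vincristine. NDE1, a dynein regulator at the kinetochore, rose by 0.43 under colcemid and 0.50 under vincristine.

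Regulators of cell cycle transcription had 4 of 15 higher and 5 lower under formaldehyde at 24 h, 7 and 4 under MMS and 6 and 3 under EMS. Over all genes 23.8% rose and 23.9% fell, 30.8% and 27.7%, and 27.8% and 23.6%. The formaldehyde counts, and the counts that fell under MMS and EMS, are thus near the background. Across the doses of colcemid 3, 3 and 3 rose and 9, 8 and 7 fell, and across those of vincristine 3, 3 and 3 rose and 10, 7 and 5 fell. Over all genes 20.7%, 20.3% and 18.3% fell under colcemid and 20.8%, 19.5% and 18.2% under vincristine. At the highest dose 18.0% and 17.5% of all genes rose, so the counts that rose there are near the background. CDKN1A, an inhibitor of cyclin-dependent kinases, rose at 24 h by 2.25 under MMS, 1.93 under EMS, 1.93 under formaldehyde, 1.04 under colcemid and 0.81 under vincristine. At 4 h it rose by 1.16, 0.89 and 0.21 under the first 3, and had -0.02 under colcemid and -0.06 under vincristine, which were not called. FOXM1, an activator of G2 and M genes, fell by 0.21 at 4 h and by 0.17 at 24 h under MMS, and had -0.04 at 24 h under EMS, not called. RBL1, a pocket protein of the repressor complex DREAM, fell by 1.14 under colcemid and by 1.12 under vincristine. E2F5, a repressor E2F, fell by 1.64 under MMS, 1.25 under formaldehyde and 1.22 under EMS.

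Calls were tallied over the 30 comparisons of a dose with untreated, in which from 0.0% to 58.5% of all genes were called. The same tally was not made for all genes, so the counts have no background beside them. Doses of a chemical share untreated arrays, so the 30 are not separate observations. KIF23 fell in 13 and KIF11 in 12, and neither rose in any. KIF14 fell in 12 and rose in 2, KIF15 fell in 11 and rose in 3, and KIF20B fell in 11 and rose in 3. KIF18A fell in 8 and rose in 8, KIF20A fell in 7 and rose in 6, KIF2C fell in 4 and rose in 7, and KIF4A fell in 5 and rose in 9. The transport kinesin KIF3A rose in 12 and fell in 2, KIFC2 rose in 10 and fell in 2, KIF3B rose in 8 and fell in 4, and KIF5A and KIF1C rose in 6 and 5 and fell in none. KIF17, KIF3C, KIF7, KIF19 and KIF25 were called in none of the 30, with changes between -0.21 and 0.21. With the replicate block KIF19 was called at 200 µM formaldehyde and 4 h (0.21, limma adjusted p = 0.045).

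Of the 17 kinesins with more than 1 tested probe set, 23 other probe sets could be set beside the brightest in the highest-dose comparisons. Where the brightest was called, 50 of 100 such cases were called in the same direction, 48 were not called and 2 were called in the opposite direction, KIF5B and KIF9 under MMS at 24 h. KIF5B gave 0.15 there by its brightest probe set and -0.13 by another, so the rise counted for it there rests on the brightest probe set.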

How the data were processed

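Total RNA of TK6 cells was read on 120 arrays, of the type Affymetrix HG-U133 Plus 2. The deposited series table holds the authors' log2 values of 54675 probe sets. The method named per the submitters' processing notes is RMA. Its version, and if the arrays were normalized as a single set, are not given in the sources used here. Of these probe sets, 41091 name 1 gene, 1801 several, 11721 none and 62 are controls. The brightest probe set of each gene was kept. RMA compresses changes of dim probe sets, and differences of log2 values are changes in RNA share, not in molecules per cell.

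Genes at 6.18 or more (probe sets' means over all arrays had this median, used as the limit) on at least 3 arrays were tested. Each chemical's 24 arrays were fitted with 8 group means in limma 3.58.1 (R 4.3.3), without a block, and p-values were adjusted over 14023 genes. Comparisons between chemicals used 48, 96 or 120 arrays. Tables and promoter matches were made in Python 3.11.15 (pandas 2.3.3) and plots in matplotlib 3.10.9. The fit was tested on simulated data first.

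The experiment number in the labels pairs arrays across groups. In 19 of 30 comparisons every pair of same-numbered arrays deviated together with a correlation above 0.1 (median 0.285). The median for other numbers was -0.141. Deviations from a group mean cancel within the group, so this value is tied to the first and is no separate reference. The fit with the replicate block was an alternative, and its values stand beside named results whose call it changes.

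Any kinesin could be named. Candidates for naming with values were the 4 called mitotic and 4 called other kinesins with the largest change at each highest dose. A panel of KIF11, KIF20A, KIF23, KIF2C, KIF18A, KIF4A, KIFC1, KIF5B, KIF1B, KIF3A, KIF13A, KIF16B and KIF21B was added to these. Not every candidate has its value above. Left out are, among others, KIF2A under MMS and EMS at 4 h. At 24 h KIF9 and KIF22 under MMS, KIF26B under EMS and KIF21A under colcemid were left out too. From each list of partners and regulators the 4 called genes with the largest change were candidates, with CENPE, FOXM1 and CDKN1A. Other kinesins and doses were added after their values were seen. The members, lists and tests were chosen with earlier results of these data known, and the lists come from general knowledge. Alternatives were the block, no filter, the mean of probe sets, repeated quantile normalization, all arrays in a single fit, leaving out each experiment, counting KIF2A and KIF24 as mitotic, other probe sets, and leaving out experiment 3 of the untreated 4 h arrays in the formaldehyde set. The last 2 and the comparison of highest with lowest dose were chosen after seeing the data. KIF4B and CIT were not analysed here. Array number limits the precision.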

Additional observations from a re-analysis of the deposited data

Results flagged for a closer look

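The 16 results that follow are given because a kinesin was called in opposite directions at 4 h and 24 h under the highest dose, with the difference between the times itself tested by limma. All values are changes at 24 h minus changes at 4 h on the log2 scale.

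Under formaldehyde the difference was 0.973 for KIF1B (-0.52 at 4 h, 0.46 at 24 h), 1.08 for KIF3A and 1.70 for KIF3B, all transport kinesins. The 4 h fall of KIF3A rests on its brightest probe set, as its other probe set was not called there.

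Under MMS the mitotic kinesins had 1.24 for KIF20A (-0.90 at 4 h, 0.35 at 24 h), 1.10 for KIF15, 0.683 for KIF20B, 0.570 for KIF18A and 0.514 for KIF4A. Transport and other kinesins had 0.793 for KIF3B, 0.509 for KIF13B, 0.447 for KIF21A and 0.351 for KIF5B. The KIF5B value at 24 h rests on 1 probe set, and the mean of its probe sets was -0.01. Leaving out experiments 1, 2 or 3 singly lost the 4 h call of KIF4A each time. The 4 h call of KIF13B was lost without experiment 1 or 2, those of KIF21A and KIF5B without 1 or 3, and the 24 h calls of KIF18A and KIF13B without 3 and of KIF5B without 1 or 3.

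Under EMS the difference was 1.07 for KIF20A (-0.55 at 4 h, 0.52 at 24 h), 0.484 for KIF18A, 0.303 for KIF20B and -0.400 for KIF26A. KIF26A reached the limit on 8 of 120 arrays, and its 4 h call was lost without any single experiment. The calls of KIF18A were lost without experiment 1 or 2 at 4 h and without 1 or 3 at 24 h. Those of KIF20B were lost without 1 or 3 at 4 h and without any single experiment at 24 h.

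A further pair of results differed between colcemid and vincristine at the highest dose and 24 h: KIF14 by -0.33 (0.04 under colcemid, 0.37 under vincristine) and KIF9 by 0.569 (0.85 and 0.28). The KIF9 value rests on its brightest probe set, as another was not called under colcemid.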

How the results depend on the processing

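Counts of called kinesins at the highest doses kept within 1.5 times of the values above under the alternatives run, with these exceptions. With the replicate block EMS at 4 h had 1 transport call in place of 0, and colcemid at 4 h had 2 mitotic calls in place of 0. With the mean of probe sets colcemid at 4 h had 0 transport calls in place of 1, and the mitotic kinesins whose colcemid change differed between times were 4 in place of 7. Leaving out each experiment in turn gave 5 to 7 mitotic calls (9 with all) under formaldehyde at 24 h, 2 to 4 transport calls (5) under MMS at 4 h and 5 to 11 (9) at 24 h. It gave 3 to 4 mitotic calls (6) under EMS at 4 h and 7 to 8 (11) at 24 h, and 0 to 1 transport calls (1) under colcemid at 4 h. It gave 3 to 7 mitotic kinesins (7) whose vincristine change differed between times. The cause of these shifts was not tested. Of 151 named results 94 were called, and 67 of these stayed called without each experiment, while 27 were lost without at least 1. The replicate block added 39 kinesin calls over the 30 dose comparisons and lost 0. Of the named results it kept 145 on their side of the threshold and added calls in 6: KIF20A at 4 h and KIF4A at 24 h under formaldehyde, KIF5B at 24 h under EMS, and KIF18A at 4 h with KIF20A and KIF5B at 24 h under colcemid. For KIF5B the limma adjusted p with the block was 0.028 under EMS and 0.014 under colcemid. Without the filter 6 calls were lost, and repeated quantile normalization lost 4 and added 5. KIF5B under MMS at 24 h reversed with the mean of probe sets (-0.0113, adjusted p = 0.846 by limma), and the cause was not tested. Leaving out experiment 3 of the untreated 4 h arrays in the formaldehyde set kept 30 results and added the call of KIF4A at 24 h. A kinesin that was not called is not shown to be unchanged with 3 arrays a group. Probe sets near the limit of 6.18, such as those of KIF5A, KIF6 and KIFC3, are close to background.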
